A study of Mus musculus with 4 samples.

Results

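The miR-199 and miR-214 microRNAs (miRNAs) of the mouse aorta are described here, taken by name from the deposited lists: miR-199a-5p, miR-199a-3p, miR-199b-5p, miR-199b-3p, miR-214-3p and miR-214-5p, 6 of 1152 entries. miR-199a-3p and miR-199b-3p hold identical values in all 4 libraries and were counted once, as miR-199a/b-3p, which left 5 distinguishable members. All 5 were among the 479 entries with a mean of at least 1 count per 1000000 (CPM), which were tested. Aortic small RNA between 18 and 30 nucleotides long was sequenced to profile miRNAs in vascular calcification of chronic kidney disease (CKD). There were 2 Sham and 2 CKD libraries, all from 12-week wild type C57BL/6 mice, an inbred laboratory strain, with 4 samples pooled for each. The labels describe removal of the poles of the left kidney, removal of the right kidney 1 week later, and then 4 weeks on food with 2% phosphate and drinking water with 0.45% NaCl. The labels give both groups this same treatment text, so how the Sham mice were handled was not given in the sources used here. Nothing says whether the pools of a group held different mice, so p-values cover just the spread among these libraries, which may be technical.

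miRNAs are short RNAs cut from hairpin precursors that repress messenger RNAs, mainly through pairing of the seed, bases 2 to 8 of the mature strand, and each hairpin can release a strand from its 5′ side (5p) and a strand from its 3′ side (3p). miR-199a and miR-214 are known as miRNAs of mesenchymal cells such as fibroblasts, smooth muscle and skeletal precursors: a copy of miR-199a and miR-214 lie in the long noncoding RNA Dnm3os, a target of the transcription factor Twist1. miR-199a-5p is known to repress caveolin-1 in fibroblasts, miR-199a-3p to repress mTOR, miR-214-3p to repress Atf4 in osteoblasts, and miR-199b-5p to repress Dyrk1a in heart muscle.

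The mature sequences are shown to make plain which members can be told apart, with the seed in capitals. RefSeq, on GRCm38.p6, gave a mature sequence for 5 of the 6 named entries, all but miR-199b-5p.
miR-199a-5p: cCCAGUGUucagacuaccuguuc
miR-199a-3p: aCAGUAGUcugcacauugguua
miR-199b-3p: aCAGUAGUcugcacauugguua
miR-214-3p: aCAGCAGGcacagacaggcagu
miR-214-5p: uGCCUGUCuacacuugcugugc
The 3p strands of miR-199a and miR-199b are the same molecule in sequence, so their reads carry no information on the hairpin they came from. The members hold 4 different seeds here. Outside the members, miR-761 was the only mature miRNA in the RefSeq table with a shared seed, that of miR-214-3p, and it is not analysed here.

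The 4 precursor hairpins are shown to locate the difference between the miR-199 copies. Capitals mark the stretch that matches miR-199a-5p best and the stretch that matches miR-199a-3p, and in Mir214 the miR-214-5p and miR-214-3p strands.
Mir199a-1: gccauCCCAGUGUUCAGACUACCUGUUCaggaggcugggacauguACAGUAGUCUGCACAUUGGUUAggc
Mir199a-2: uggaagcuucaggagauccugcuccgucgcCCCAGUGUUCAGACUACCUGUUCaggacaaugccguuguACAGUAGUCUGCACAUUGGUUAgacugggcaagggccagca
Mir199b: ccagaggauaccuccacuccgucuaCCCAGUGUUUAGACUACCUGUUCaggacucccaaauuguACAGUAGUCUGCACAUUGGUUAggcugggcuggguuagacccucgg
Mir214: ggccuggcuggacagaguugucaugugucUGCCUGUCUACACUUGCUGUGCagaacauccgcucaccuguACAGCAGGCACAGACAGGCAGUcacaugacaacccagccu
Both miR-199a hairpins hold miR-199a-5p with 0 mismatches. On its 5′ side, the arm that gives miR-199b-5p, the Mir199b hairpin matches the 23 bases of miR-199a-5p except for C10U, counted from 1 at the 5′ end of miR-199a-5p. That base lies outside the seed, and it is the only base that separates the copies over this stretch. The handling of reads with a mismatch was not given in the sources used here.

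All 4 hairpins lie at 3 places in GRCm38, each antisense to a dynamin gene. Mir199a-2 (chromosome 1, 162217814 to 162217923, plus strand) and Mir214 (chromosome 1, 162223368 to 162223477, plus strand) lie 5444 bases apart within an exon of Dnm3os (chromosome 1, 162217623 to 162225550), which runs antisense within an intron of Dnm3. Mir199a-1 (chromosome 9, 21496495 to 21496564, minus strand) lies antisense in an intron of Dnm2. Mir199b (chromosome 2, 32318460 to 32318569, plus strand) lies antisense in an intron of Dnm1. miR-199a-5p reads can thus come from chromosome 1 or 9, and miR-214 reads from chromosome 1.

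The scale of the deposited values bears on every member. The libraries held between 16658810 and 17532748 reads of listed entries, and miR-143-3p, the dominant smooth muscle miRNA, took between 72.5% and 79.8% of them in Sham and between 40.8% and 41.1% in CKD. All other entries are values out of a fixed total, so where miR-143-3p has a smaller share they are higher together. Over the 479 tested entries the log2 difference had a median of 1.34. In such values, less miR-143-3p and more of the other entries cannot be told apart. Values are therefore given on the deposited scale, after scaling by trimmed means (TMM), and as ratios of members within a library. TMM removes the shift that most entries share and left a median of 0.00, so a rise or fall after TMM scaling is relative to most entries. Scaling cannot move the plain ratios. The log2 ratios had 1 added to each value, so scale can move those of low entries. Smooth muscle markers dominated, as the tissue label implies: the 4 smooth muscle strands summed to between 774989 and 833695 CPM in Sham, against between 485612 and 488708 CPM in CKD. Most of this sum was miR-143-3p, with means of 761683 CPM in Sham and 409592 CPM in CKD. On this scale miR-145a-5p, miR-145a-3p and miR-143-5p were instead higher in CKD, 1.78-fold, 3.47-fold and 1.72-fold by means, as most entries were. In these bulk samples, fewer cells of a type and less RNA per cell cannot be told apart.

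miR-199a-5p and miR-199a/b-3p were among the most abundant miRNAs of the aorta, and the other members were far scarcer. miR-199a-5p had 5207 and 7041 CPM in the Sham libraries, against 22153 and 17515 CPM in the CKD libraries. miR-199a/b-3p had 4845 and 6601 CPM in Sham, against 21727 and 20065 CPM in CKD. Counting the identical 3p entries once, both ranked between 7 and 11 in every library. Their means differed by less than the SD between libraries of a group: 6124 ± 1297 and 5723 ± 1242 CPM in Sham, against 19834 ± 3280 and 20896 ± 1175 CPM in CKD (SD, n = 2). For the 5p strand the Wilson 95% interval of its share of reads in Sham 1 was 0.517% to 0.524%, and such intervals cover counting error only, for reads without molecular identifiers.

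miR-199b-5p and miR-214-3p came next, and their order differed between the groups. miR-199b-5p had 248 and 356 CPM in Sham, against 349 and 367 CPM in CKD. miR-214-3p had 198 and 275 CPM in Sham, against 1285 and 949 CPM in CKD. Within each Sham library miR-199b-5p was the higher of the pair, by 1.26 and 1.29 times, although the ranges over the Sham libraries overlap. Within each CKD library it was the lower, at 0.272 and 0.387 of miR-214-3p. miR-214-5p, the minor strand, was lowest throughout, with 17.1 and 21.9 CPM in Sham, against 76.5 and 57.1 CPM in CKD, or 300 and 369 reads and 1341 and 952 reads. Adaptor ligation captures some sequences better than others, so levels of different miRNAs are read counts, not molecule counts.

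**Figure D1:**
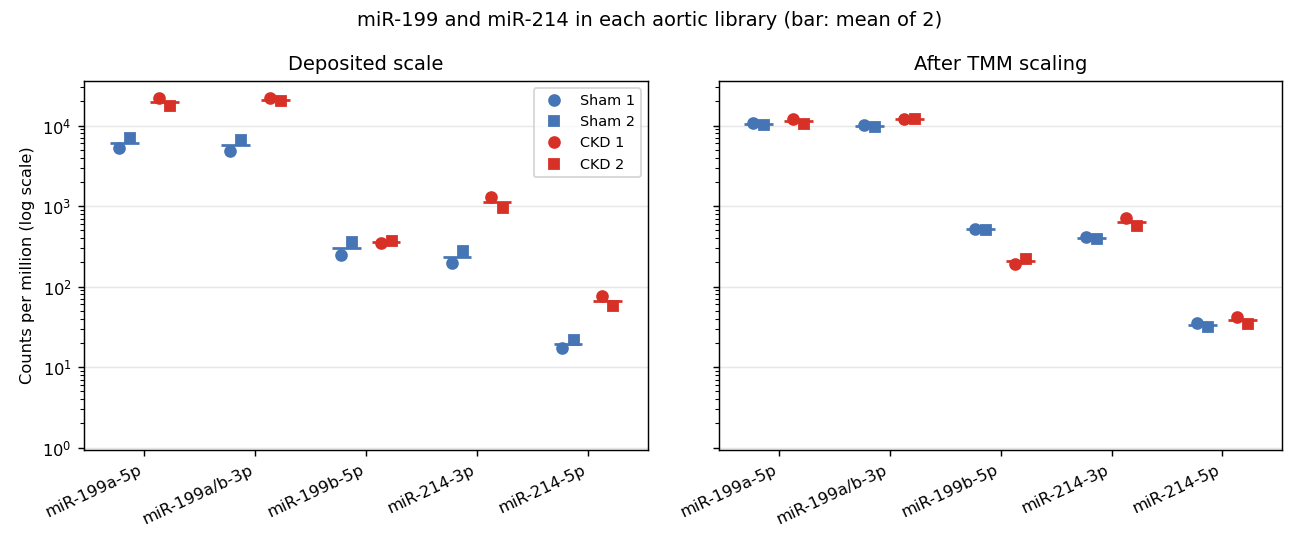
CPM of the 5 distinguishable members in each library on a log axis (blue Sham, red CKD, circles replicate 1, squares replicate 2, bars the mean of 2), on the deposited scale at left and after TMM scaling at right. On the deposited scale 4 members are higher in both CKD libraries and miR-199b-5p overlaps, while after TMM scaling miR-199b-5p is the member with both CKD libraries below both Sham libraries.

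On the deposited scale 4 of the 5 members rose in CKD and miR-199b-5p did not pass the test. miR-214-3p rose from 236 ± 54.6 to 1117 ± 237 CPM (SD, n = 2), a 4.72-fold difference of means or 2.24 on the log2 scale (SE 0.41, limma adjusted p = 0.0012). miR-199a/b-3p rose 3.65-fold (log2 1.88, SE 0.28, limma adjusted p = 7.2e-04), and miR-199a-5p 3.24-fold (log2 1.70, SE 0.29, limma adjusted p = 9.9e-04). miR-214-5p rose from 19.5 ± 3.35 to 66.8 ± 13.7 CPM (SD, n = 2; log2 1.72, SE 0.37, limma adjusted p = 0.0021). miR-199b-5p went from 302 ± 76.0 to 358 ± 12.7 CPM (SD, n = 2), 1.19-fold, or 0.27 on the log2 scale (SE 0.41, limma adjusted p = 0.54). The share of all tested entries that rose by this rule was 82.9%, and 91.2% had both CKD libraries above both Sham libraries, so the rise of 4 members is near the background. Without CKD 1 fewer members passed, and fewer of all tested entries did as well. The log2 differences without that library were 1.53 for miR-199a-5p, 1.83 for miR-199a/b-3p, 2.02 for miR-214-3p, 1.51 for miR-214-5p and 0.30 for miR-199b-5p.

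After TMM scaling miR-199b-5p fell, and none of the other 4 members passed the test. miR-199b-5p had 519 and 512 TMM-scaled CPM in the Sham libraries, against 193 and 221 in the CKD libraries. Both CKD libraries were below both Sham libraries, as was so for 31.5% of tested entries, and the gap was far larger than that within either group. The means were 515 ± 5.25 and 207 ± 19.9 TMM-scaled CPM (SD, n = 2), and the log2 difference was -1.31 (SE 0.13, limma adjusted p = 0.012). The edgeR quasi-likelihood test on the recovered reads gave -1.31 as well (adjusted p = 0.019), where 4.80% of entries fell. Of all 479 tested entries 5.85% fell by the limma rule and 7.72% were called in either direction, and 12 lay below miR-199b-5p. The limma call was lost when any library was left out, at log2 differences from -1.40 to -1.22 and adjusted p from 0.099 without CKD 1 to 0.14 without Sham 1. With totals that leave out miR-143-3p in place of TMM, the split of calls over all entries moved from 9 higher and 28 lower to 14 higher and 14 lower, and miR-199b-5p was called under both.

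miR-214-3p had the highest difference of the members after TMM scaling, with 413 and 395 TMM-scaled CPM in Sham, against 710 and 572 in CKD. Its libraries did not overlap, which was also so, in this direction, for 28.0% of tested entries. Its log2 difference was 0.66 (SE 0.15, limma adjusted p = 0.082), and 88.9% of tested entries lay below it. miR-199a/b-3p lay at 0.30 (SE 0.10, limma adjusted p = 0.15), with 10121 and 9487 TMM-scaled CPM in Sham, against 12012 and 12087 in CKD. Both had an unadjusted limma p under 0.05, as did 124 of the 479 tested entries. DESeq2, which scaled by medians of ratios in place of TMM, called 77 entries, 28 of them higher. It called both of these members higher (DESeq2 adjusted p = 2.2e-04 and 0.0014), while edgeR called neither (adjusted p = 0.096 and 0.15). With only entries of a mean of at least 10 CPM tested, limma also called miR-214-3p (adjusted p = 0.045). In that setting 41 entries were called, 9 of them higher.

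miR-199a-5p and miR-214-5p lay near the middle of all entries after TMM scaling. miR-199a-5p had 10878 and 10120 TMM-scaled CPM in Sham, against 12248 and 10551 in CKD, with overlapping groups, and differed by 0.12 on the log2 scale (SE 0.12, limma adjusted p = 0.58). miR-214-5p had 35.8 and 31.4 in Sham, against 42.3 and 34.4 in CKD, also overlapping, at 0.18 (SE 0.16, limma adjusted p = 0.5). The median of the 5 members was 0.18 after TMM scaling and 1.72 on the deposited scale, beside 0.00 and 1.34 for all tested entries.

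**Figure D2:**
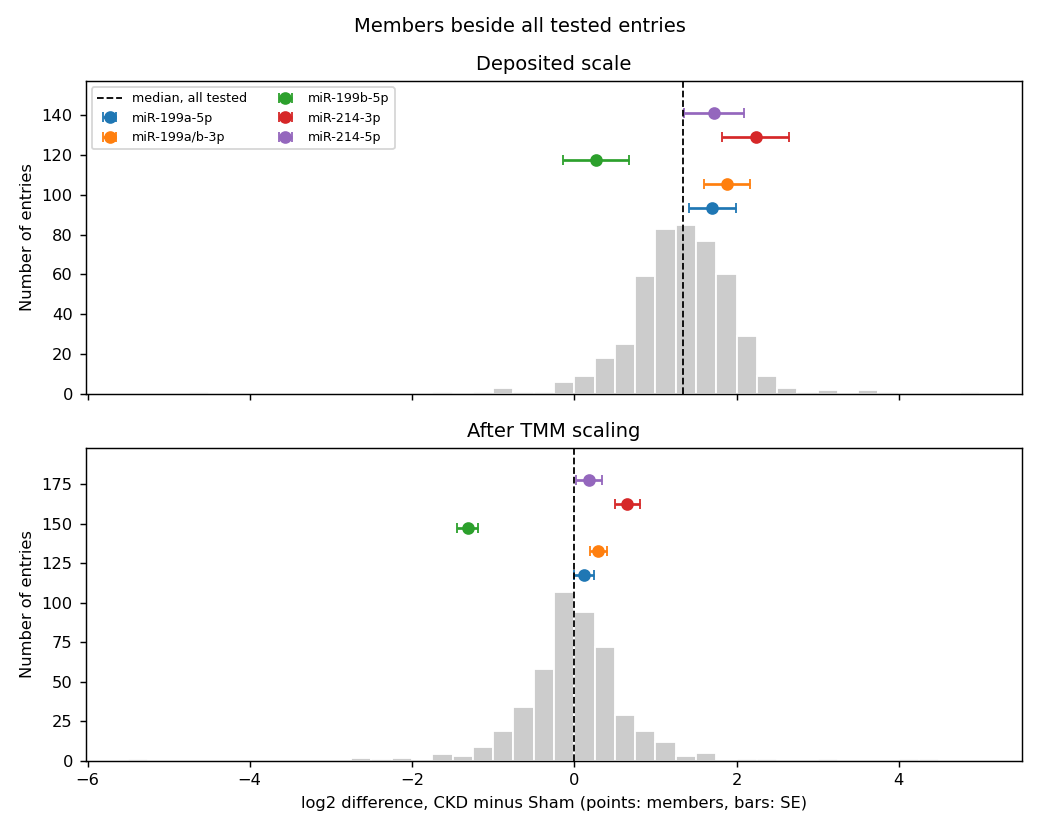
Histograms of the log2 difference between CKD and Sham for the 479 tested entries, on the deposited scale (top) and after TMM scaling (bottom), with the 5 members as points with SE bars, set above the histogram at arbitrary heights, and the median of all entries as a dashed line. miR-199b-5p lies at 0.27 and -1.31, left of the median in both, and the other 4 members lie to its right.

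The share of reads outside miR-143-3p uses no TMM factor, but it is itself a scaling, by totals that leave out miR-143-3p. All members together made up 5.21% and 5.20% of reads other than miR-143-3p in Sham, against 7.75% and 6.58% in CKD. miR-199b-5p made up 0.123% and 0.130% of those reads in Sham, against 0.0593% and 0.0620% in CKD. miR-214-3p made up 0.0980% and 0.10% in Sham, against 0.218% and 0.160% in CKD. Both CKD libraries of miR-199b-5p were below both Sham libraries, as were those of 17.8% of the 478 tested entries other than miR-143-3p. miR-199a-5p made up 2.58% and 2.56% in Sham, against 3.76% and 2.96% in CKD, and miR-199a/b-3p 2.40% and 2.40%, against 3.69% and 3.39%. miR-214-5p made up 0.00848% and 0.00796% in Sham, against 0.0130% and 0.00965% in CKD. On this measure the CKD libraries of all 4 members other than miR-199b-5p were above both Sham libraries, as were those of 45.0% of the same entries, whereas miR-199a-5p and miR-214-5p overlapped after TMM scaling.

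The balance between the miR-199 copies differed between the groups, with fewer miR-199b-5p reads per miR-199a-5p read in CKD. There were 21.0 and 19.8 miR-199a-5p reads for each miR-199b-5p read in the Sham libraries, against 63.4 and 47.7 in the CKD libraries. Put as a share, miR-199b-5p made up 4.55% and 4.81% of the miR-199 5p reads in Sham (Wilson 95% intervals 4.42% to 4.69% and 4.69% to 4.93%), and 1.55% and 2.05% in CKD (1.51% to 1.59% and 2.00% to 2.10%). The groups did not overlap. The intervals of the CKD libraries do not overlap each other either, so libraries of a group also differ beyond counting error. Numbers of miR-199b-5p reads were 4352 and 6007 in Sham, against 6122 and 6116 in CKD, while those of miR-199a-5p were 91232 and 118846 in Sham, against 388404 and 291781 in CKD.

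This ratio was tested beside all 173 ratios of entries that share a miRNA number and an arm but differ in letter. The log2 ratio of miR-199a-5p to miR-199b-5p was 4.34 ± 0.06 in Sham and 5.78 ± 0.29 in CKD (SD, n = 2), a difference of 1.43 (SE 0.19, limma adjusted p = 0.012). Of the 173 ratios, 14.5% were called and 64.7% did not overlap between groups, and the median size of the difference was 0.27. The miR-199 pair ranked 15 by size. The call was lost without Sham 1 (1.48, limma adjusted p = 0.12) or Sham 2 (1.39, limma adjusted p = 0.11), and kept without either CKD library. An exact permutation test of a single ratio over 2 against 2 libraries cannot go below a two-sided p of 0.333, which is the value this ratio had.

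**Figure D3:**
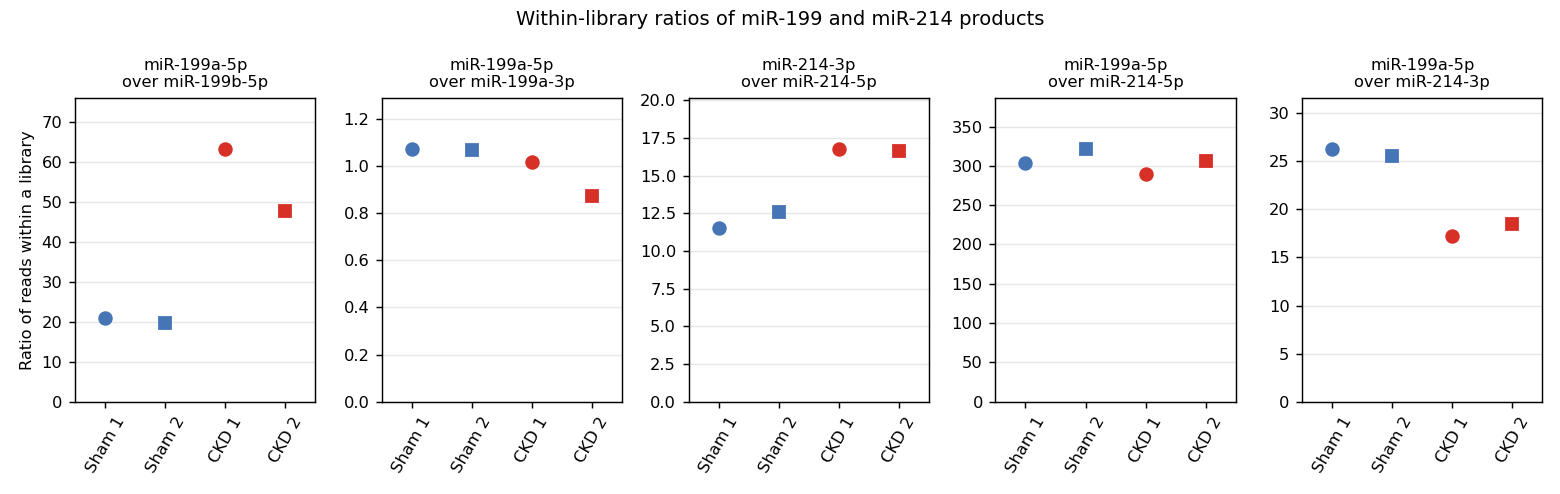
Ratios of reads within each library (linear axes from 0, blue Sham, red CKD) for 5 pairs of members. miR-199a-5p over miR-199b-5p is 21.0 and 19.8 in Sham, against 63.4 and 47.7 in CKD, while miR-199a-5p over miR-214-5p overlaps between the groups, between 290 and 322.

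The strands of the miR-199a hairpins were nearly equal in number, which few hairpins showed. miR-199a-5p was 1.07 and 1.07 times miR-199a/b-3p in the Sham libraries, against 1.02 and 0.873 times in the CKD libraries. Among 130 hairpins with both arms at a mean of at least 1 CPM, the median size of the log2 ratio was 3.12 and 22.3% had arms within 1 log2 unit, and over the 4 libraries miR-199a was the closest to equal of all. The ratio mixes loci, since the 3p reads of Mir199b count in it. With both 5p strands summed it was 1.13 and 1.12 in Sham, against 1.04 and 0.891 in CKD. The difference of the miR-199a log2 ratio between groups was -0.18 (SE 0.17, limma adjusted p = 0.43), smaller than the median size of 0.45 over all hairpins.

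miR-214 reads came mostly from the 3p strand, and the excess was larger in both CKD libraries, a difference that missed the threshold. There were 11.5 and 12.6 miR-214-3p reads for each miR-214-5p read in Sham, against 16.8 and 16.6 in CKD, so the 5p strand made up 7.97% and 7.37% of the reads of its hairpin in Sham, against 5.62% and 5.68% in CKD. The groups did not overlap, nor did those of 70.0% of hairpins. The log2 ratio of 5p to 3p differed by -0.52 (SE 0.16), which missed the threshold over all hairpins (limma adjusted p = 0.063), where 24.6% were called. It passed with a pseudocount of 10 (-0.82, limma adjusted p = 0.01), where 80 hairpins were called against 32. With both arms at a mean of at least 10 CPM it also passed (limma adjusted p = 0.026). It missed with a pseudocount of 0.1 (-0.48, limma adjusted p = 0.12) and with replicate number as a block (limma adjusted p = 0.11). Without a library the difference ranged from -0.59 to -0.45. For miR-199b, the log2 ratio of 5p to the shared 3p differed by -1.62 (SE 0.16, limma adjusted p = 0.0083), the fifth largest in size, and this call was lost without Sham 1 (-1.65, limma adjusted p = 0.091). The origin of the shared 3p reads cannot be told apart, so this value largely repeats the comparison of the copies and is not a measure of the Mir199b arms.

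**Figure D4:**
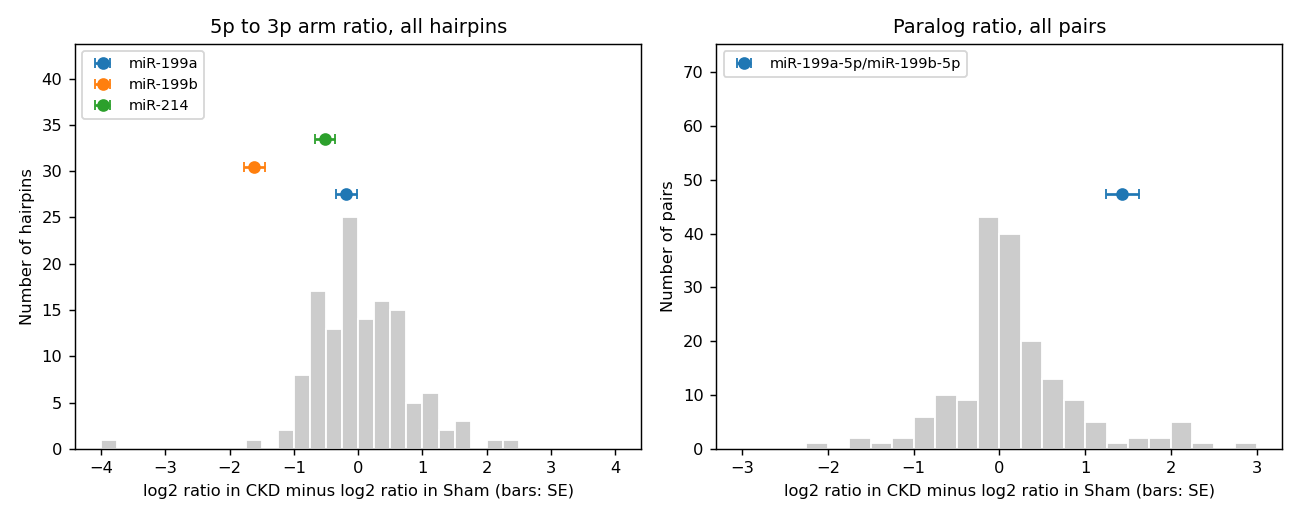
Histograms of the change in log2 ratio between Sham and CKD for 130 hairpins (5p to 3p, left) and 173 pairs of same-numbered miRNAs (right), with the miR-199 and miR-214 ratios as points with SE bars at arbitrary heights. miR-199b (-1.62) at left and the miR-199a-5p to miR-199b-5p pair (1.43) at right lie toward the edges, and miR-199a (-0.18) and miR-214 (-0.52) lie within the bulk.

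The strands that Dnm3os can give, with Mir199a-1 as a further source of miR-199a, differed in how constant their ratios were. miR-199a-5p was 304 and 322 times miR-214-5p in Sham, against 290 and 306 times in CKD, so the groups overlapped and the log2 ratio differed by -0.02. miR-199a-5p was 26.3 and 25.6 times miR-214-3p in Sham, against 17.2 and 18.5 times in CKD, without overlap, a log2 difference of -0.54. miR-199a/b-3p was 24.5 and 24.0 times miR-214-3p in Sham, against 16.9 and 21.1 times in CKD, also without overlap. Of the 10 ratios among the 5 members, 8 did not overlap between groups, each with the smallest exact two-sided permutation p of 0.333 that 4 libraries allow. Among all 114481 pairs of tested entries the share was 61.9%. The size of the log2 difference had a median of 0.54 and a 90th percentile of 1.49 over those pairs. The 4 ratios to miR-199b-5p, which all share that entry, differed by 1.43 to 1.97 in size and the other 6 by 0.02 to 0.54.

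The promoter of Dnm3os is shown because miR-214 and a copy of miR-199a share it, and because Twist1, named above, binds E-boxes. The window (GRCm38.p6, chr1:162217373-162217672, plus strand, 250 bases before to 50 after the start, RefSeq) has capitals at matches to the E-box (CANNTG) and the CArG box, the motif of serum response factor, a regulator of smooth muscle genes. The CArG box was added after the sequence was seen.
Dnm3os promoter: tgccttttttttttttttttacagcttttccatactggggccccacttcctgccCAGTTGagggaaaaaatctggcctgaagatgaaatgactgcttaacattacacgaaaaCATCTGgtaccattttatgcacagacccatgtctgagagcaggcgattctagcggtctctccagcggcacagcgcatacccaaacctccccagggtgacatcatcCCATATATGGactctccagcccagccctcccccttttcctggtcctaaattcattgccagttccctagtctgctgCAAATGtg
Both motifs read the same on either strand and the matches do not overlap. There were 3 E-boxes, and 72.3% of 32851 promoters of this length hold at least 1 and 17.6% at least 3. There was 1 CArG match, and 1.63% of promoters hold one. These are matches of letters, and no binding or promoter activity was measured here.

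The entries most like each member were taken by the root mean square difference of centred, TMM-scaled log2 values over the 4 libraries, among entries with a mean of at least 10 CPM. For miR-199b-5p they were miR-423-3p (0.12), miR-299a-3p (0.12) and miR-28a-3p (0.14), against a median of 0.67. Their log2 differences after TMM scaling were -1.11, -1.09 and -1.06, a direction fixed by their choice from the same values. For miR-214-3p they were miR-29a-3p (0.04), miR-125b-1-3p (0.05) and let-7f-1-3p (0.06). For miR-199a-5p they were miR-29c-5p (0.02), miR-30a-5p (0.03) and miR-652-3p (0.05), and for miR-199a/b-3p miR-22-5p (0.01), miR-362-3p (0.05) and miR-24-2-5p (0.05). For miR-214-5p they were miR-652-3p (0.04), miR-199a-5p (0.05) and miR-151-3p (0.05), so a member stood among the nearest entries of another only there.

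Other miRNAs known from fibroblasts and mesenchymal tissue lay on both sides of the shared shift as well. Of 17 listed, 15 rose on the deposited scale (median 1.63), near the 82.9% of all tested entries. After TMM scaling 1 rose and 1 fell, beside 1.88% and 5.85% of all tested entries, and 9 lay above 0, with a median of 0.05. The 4 most abundant of the list were miR-140-3p, miR-125b-5p, miR-27b-3p and miR-29a-3p. miR-140-3p, a miRNA of cartilage and smooth muscle, fell by 1.33 after TMM scaling (limma adjusted p = 0.012), close to miR-199b-5p in size. miR-125b-5p lay at -0.0048 (limma adjusted p = 0.99), miR-27b-3p at -0.52 (limma adjusted p = 0.068) and miR-29a-3p at 0.71 (limma adjusted p = 0.053), beside 0.66 for miR-214-3p. The entry that rose was miR-29b-3p, a repressor of collagen genes, by 0.95 (limma adjusted p = 0.038), and it is named here after its value was seen.

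Summed markers of other cells were higher in both CKD libraries on the deposited scale, as most entries were. All 4 red cell strands were detected, and their sum was 219 and 841 CPM in Sham, against 1035 and 4804 CPM in CKD, with CKD 2 far above the others. The 4 leukocyte strands summed to 75.9 and 219 CPM in Sham, against 409 and 446 CPM in CKD, and the 2 endothelial strands to 2899 and 3411 CPM in Sham, against 9989 and 9767 CPM in CKD. The 7 epithelial strands summed to between 53.1 and 58.4 CPM in Sham, against between 159 and 252 CPM in CKD, and the 3 adipocyte strands to between 688 and 1152 CPM and between 2641 and 3540 CPM. The 6 striated muscle strands summed to between 509 and 622 CPM in Sham, against between 973 and 1204 CPM in CKD, the 3 neural strands to between 34.3 and 39.4 CPM and between 122 and 161 CPM, and miR-122-5p of hepatocytes had 1.43 and 25.5 CPM in Sham, against 161 and 56.0 CPM in CKD. None of these markers was at 0 in all libraries. After TMM scaling limma called 0 of the 27 tested markers of other cells, beside 7.72% of all tested entries. Of these markers 6 had an unadjusted limma p under 0.05, beside 124 of all 479 tested entries. edgeR called 0 of them, beside 31 of the 479 entries. Of the 4 smooth muscle strands limma called 2 lower after TMM scaling, beside 5.85% of all tested entries: miR-143-3p (-2.48, limma adjusted p = 0.012) and miR-145a-5p (-0.73, limma adjusted p = 0.044). The others were not called, with miR-143-5p at -0.81 (limma adjusted p = 0.08) and miR-145a-3p in the other direction at 0.22 (limma adjusted p = 0.29). edgeR called 1 of the 4, miR-143-3p (adjusted p = 0.02), with miR-145a-5p at an adjusted p of 0.054, beside 4.80% of all entries. The part of these cells in the values of miR-199 and miR-214 was not tested.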

How the data were processed

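Small RNA libraries of mouse aorta, 2 Sham and 2 CKD, were used. Trizol-extracted RNA of 4 samples was pooled per library and gel-cut small RNA was ligated to adaptors, per the labels' protocols. The submitters' processing notes name Bowtie and GRCm38, and counting and annotation were not given in the sources used here. Values as deposited sum to about 1000000 per library and were read as the authors' counts per 1000000 (CPM). In 3 files names stand above values and were paired by order. Every value above 0 (100%) equalled a whole number of reads within 0.005 CPM, which gave the read totals. Within a group the libraries differed beyond counting noise, with a chi-square per degree of freedom of 593 in Sham and 423 in CKD.

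limma 3.58.1 with a variance trend was run on log2(CPM + 1) for entries averaging at least 1 CPM, with Benjamini-Hochberg adjustment over all, two-sided, at a threshold of 0.05, and again after TMM scaling. With 2 residual degrees of freedom, limma borrows variance across entries. This scale understates the change of low entries. Ratios used limma without a trend, with 1 added to each value. The recovered reads were also tested with edgeR 4.0.16, which called 31 entries, DESeq2 1.42.0 and limma voom. edgeR and voom used TMM factors, and DESeq2 used its own scaling by medians of ratios. Scripts were tested on simulated data. Named entries were the members, the 3 entries most like each, miRNAs sharing a seed, miR-143-3p and up to 4 of each list. Members and lists were chosen with earlier results of these data known.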

Additional observations from a re-analysis of the deposited data

How the results depend on the processing

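With 2 libraries per group, leaving out a library decided most calls. On the deposited scale 1 to 4 of the 5 members were then called, and 137 to 384 entries against 402; with a mean of at least 10 CPM 241 entries were called. After TMM scaling 0 members were called without any 1 library (1 or 2 had an unadjusted p under 0.05), against 1, and 0 to 7 entries against 37 by limma; the entry count was 0 without either CKD library, where 92 and 109 entries had an unadjusted p under 0.05, and other tools were not run there. With a mean of at least 10 CPM 2 members and 41 entries were called. DESeq2, with medians of ratios in place of TMM, called 3 members and 77 entries. Without a filter 18 entries were called. The difference of miR-199a-5p after TMM scaling, 0.12, ranged from -0.00075 without CKD 1 to 0.23 without CKD 2. That of miR-199b-5p was below 0 in all 18 alternatives, from -1.41 to -1.05, and called in 14.

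Of the 3 hairpins of miR-199a, miR-199b and miR-214, 1 was called, 2 with a pseudocount of 10 or a mean of at least 10 CPM, and 0 to 1 without a library. Over all hairpins 32 were called, with 20 and 80 at pseudocounts of 0.1 and 10, 21 at the higher filter and 0 to 39 without a library. The paralog difference ranged from 1.23 to 1.64 without a library. Over all paralog pairs 25 were called, with 13 and 79 at those pseudocounts and 0 to 25 without a library. The lowest count without a library was reached without Sham 1 for hairpins and without Sham 2 for paralog pairs.

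The replicate numbers are shared between groups, but nothing in the labels pairs the libraries, and deviations of same-numbered libraries had a correlation of 0.12 over entries. With the replicate block, entries called after TMM scaling were 10 against 37 and paralog pairs 41 against 25, while 1 member was called as without it.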
